A study of Mus musculus with 6 samples.

Results

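Translation initiation and elongation factors are the proteins that load a ribosome onto an mRNA, find the start codon and then move the ribosome along the message. The genes described here were the entries of the deposited tables whose symbol starts with Eif or Eef and a digit, without the kinases Eif2ak, the binding proteins Eif4ebp, the sex-linked pair Eif2s3x and Eif2s3y, and names marked as pseudogenes. Their mean value over the 6 libraries also had to reach 10. Of 35491 named entries 59 fitted the names and 57 passed the level. Names and mean level alone decided membership, under a rule set with earlier results of these data known. The 2 entries left out, Eif4e1b and Eif2c5, had means of 1.81 and 0.503, against 134 for Eif5a2 and 202 for Eef1akmt2 just inside.

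RNA was taken from the gastrocnemius, a muscle of the calf. All mice were males with a C57BL/6J background, 20 weeks old, fed chow and otherwise untreated. There were 3 Control mice and 3 Ogg1Tg mice. The Ogg1Tg mice carry human OGG1-1a, a DNA glycosylase that removes oxidised guanine, fused to a mitochondrial translocation signal and driven by a CMV/AG promoter, so its expression is not limited to muscle fibres by that promoter. The labels do not say whether Ogg1Tg mice come from 1 founder or which mice were littermates, and the p-values below measure only the spread between these 6 libraries. The mouse gene Ogg1 measured 154, 225 and 193 in Control and 176, 201.1 and 193 in Ogg1Tg, which does not check the human transgene.

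As background, eIF2 brings the initiator tRNA, eIF3 is a large scaffold on the small ribosomal subunit, and eIF4E, eIF4G and eIF4A bind and unwind the capped 5′ end of the mRNA. eEF1A then delivers each aminoacyl-tRNA and eEF2 moves the ribosome by a codon, with eIF5A helping at difficult peptide bonds. Muscle is unusual in that mature fibres replace the general form of eEF1A, made from Eef1a1, by a second form made from Eef1a2.

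Depth ran from 45189860 to 56126407 reads in named genes, and the unit throughout is the normalised read count, a gene's reads divided by a single factor per library. Defining genes of muscle fibres were high in every library. Ogg1Tg replicate 3 stood apart: its Spearman correlation with the others was 0.946 to 0.953, against 0.975 to 0.983 among those 5. All 10 lymphocyte markers were above every Control library there, with a summed count of 9870 against 40.2 to 67.1 in Control and 100 and 95.2 in the other Ogg1Tg libraries, and 1 of the 10 was at 0 in all Control libraries. Adipocyte markers summed to 6417 there, against 2728 to 3282 in Control and 2607 and 2367 in the other Ogg1Tg libraries. Macrophage markers summed to 5203, against 2635 to 3668 in Control and 2358 and 1819. Muscle fibre markers were lower in that library, their median difference in log2 units from the mean of Control being -0.73, against -0.11 to 0.14 in Control and -0.07 and 0.11 in the others. Slow fibre markers had medians of -0.99, 0.44 and 0.58 in Control and 1.06, 1.49 and 0.85 in Ogg1Tg. The part of these differences in the results below was not tested, and in bulk tissue fewer cells of a type and less RNA per cell cannot be told apart. Results are therefore given with and without Ogg1Tg replicate 3 where it matters.

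Of the 57 translation factor genes 1 was called higher in Ogg1Tg muscle, Eif3c, and 0 were called lower (limma, Benjamini-Hochberg adjusted p under 0.05 over 23312 tested genes). Among all tested genes 0.545% were called, 0.395% higher and 0.15% lower. Of the remaining 56, the log2 fold changes of 54 lay within 0.5 of 0. In all, 33 were above 0 and 24 below, with a median of 0.03 beside -0.02 over all tested genes. This balance moved with the scaling: quantile normalization put 45 above 0 and 12 below, with a median of 0.12 where that of all tested genes stayed at -0.02, and edgeR put 42 above and 15 below, with 0.11 beside 0.06. Median-of-ratios rescaling and DESeq2 each put 39 above and 18 below. Unadjusted p-values under 0.05 were found for 9 of the 57, where 11% of all tested genes had one. The libraries of the groups did not overlap for 6 genes that were higher in Ogg1Tg (Eef1a1, Eif3c, Eif2s2, Eef1e1, Eef1b2 and Eif4a1) and for 6 that were lower (Eif4e3, Eif3j1, Eif3j2, Eif5b, Eif4e and Eif4enif1). Among all tested genes 18.3% were separated in this way, 7.03% with Ogg1Tg higher and 11.3% with Ogg1Tg lower.

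The shift of the 57 genes together was not alike in the Ogg1Tg libraries. Over the 57 genes, the median of log2 differences from the mean of Control was 0.09, -0.05 and -0.05 in Control and 0.16, 0.18 and -0.22 in Ogg1Tg. Ogg1Tg replicates 1 and 2 were thus above every Control library and replicate 3 below every one. Ogg1Tg replicate 3 held the lowest value of all 6 libraries for 40 of the 57 genes, or 70.2%, where it was lowest for 47.2% of the 12129 tested genes at least as abundant as the rarest member. On another scale the order turned: the 57 genes took 0.622%, 0.614% and 0.626% of the reads in named genes in Control and 0.791%, 0.727% and 0.838% in Ogg1Tg, so that replicate 3 had the largest share and the groups did not overlap. The deposited scale divides by 1 factor per library, and the share divides by the library's total reads in named genes. Ogg1Tg replicate 3 had the largest factor, 0.994, and the fewest such reads, 45189860. Normalised read counts summed over all named genes to 7.22e+07, 6.77e+07 and 6.60e+07 in Control and 6.23e+07, 6.83e+07 and 4.55e+07 in Ogg1Tg. A gene alike in all libraries on the deposited scale would thus also have its largest share in replicate 3. How many of all tested genes were separated on the share scale was not counted. Which scale is closer to the amount per cell was not tested.

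Without Ogg1Tg replicate 3, 3 of the 57 were called, all higher (Eif3c, Eef1a1 and Eif2s2), where 1.86% of 22815 tested genes were called. Then 43 lay above 0 and 14 below, with a median of 0.18 beside -0.04 over all tested genes. In those 5 libraries 31 members were separated with Ogg1Tg higher and 8 with Ogg1Tg lower, against 13.1% and 17.1% of all tested genes. Shares over all tested genes, here and elsewhere, include many genes rarer than any member. Separation was not counted among genes of like abundance. In the same 5 libraries edgeR called 4 of the 57 and 1.76% of all tested genes. With all 6 libraries, edgeR called 1 of the 57, again Eif3c, and 0.532% of all tested genes, DESeq2 called 4 (Eif3c, Eef1a1, Eif2s2 and Eef1b2) and 2.66%, and quantile normalization gave 2 (Eif3c and Eif2s2) and 0.759%. Without Ogg1Tg replicate 2, 2 of the 57 (Eif3c and Eef1a1) and 0.829% of all tested genes were called.

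**Figure D1:**
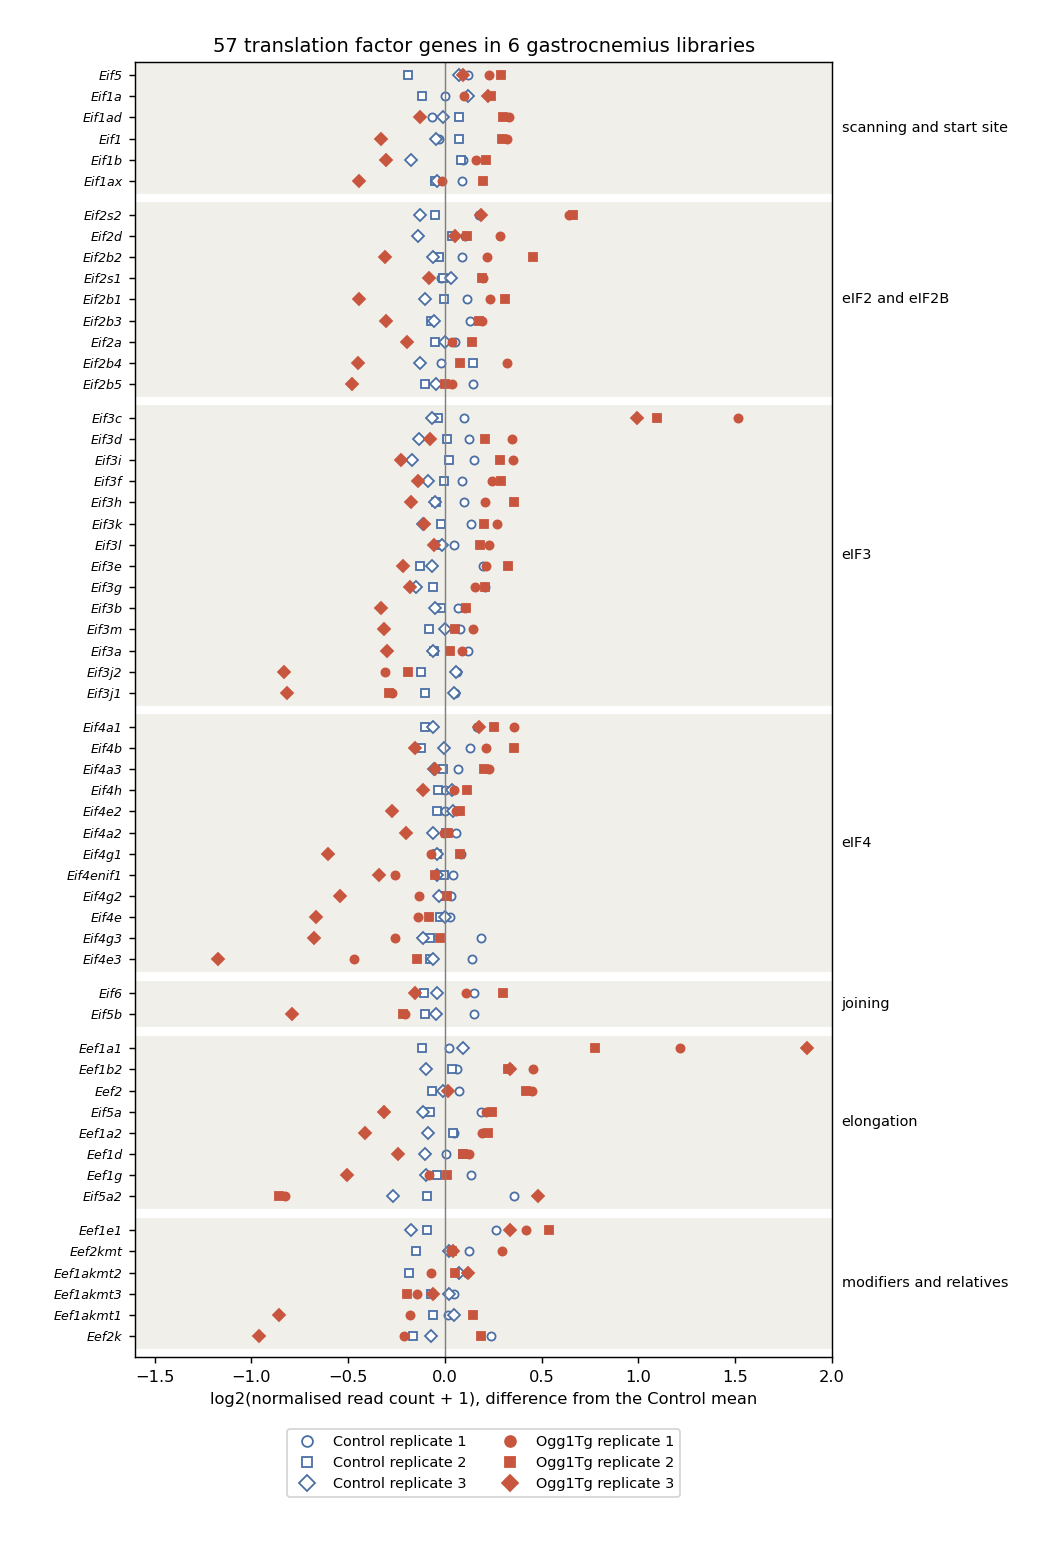
Each row is 1 of the 57 translation factor genes, grouped by role, and each point is 1 library; the horizontal axis gives log2(normalised read count + 1) minus the mean of the 3 Control libraries. Open blue symbols are Control and filled red symbols Ogg1Tg. Eif3c and Eef1a1 are the rows with every Ogg1Tg library far to the right, and the filled diamonds of Ogg1Tg replicate 3 are the lowest point in 40 of the 57 rows.

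Eif3c codes for a core subunit of eIF3 that lies at the face of the small ribosomal subunit and contacts the start-site factors. Its normalised read counts were 8235, 7506 and 7339 in Control and 21966, 16400 and 15283 in Ogg1Tg. Every Ogg1Tg library was above every Control library, by a wide gap. The means were 7693 ± 476 (SD, n = 3) and 17883 ± 3580 (SD, n = 3), a 2.30-fold difference (log2 fold change 1.20 ± 0.17 SE, limma adjusted p = 0.017). Without Ogg1Tg replicate 3 the log2 fold change was 1.30 (limma adjusted p = 0.00058). It was called under 11 of 16 other settings, edgeR (adjusted p = 0.017) among them. The call was lost with no variance trend (limma adjusted p = 0.16), and without Control replicate 1, 2 or 3 (adjusted p = 0.12, 0.19 and 0.15) or Ogg1Tg replicate 1 (adjusted p = 0.053), while the log2 fold change over the fits that left out a library stayed between 1.04 and 1.37.

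The gene lies at chr7:126546455-126566411 on the minus strand of mm10. No other annotated transcript was near-identical to it, at 95% identity over 100 bases, and no other gene's exon overlapped its exons. The 205 bases just upstream of it (RefSeq, GRCm38.p6, chr7:126566412-126566616, minus strand) are shown because Eif3c was the member called. They hold none of the 3 motifs searched below, so no base is in capitals.
Eif3c: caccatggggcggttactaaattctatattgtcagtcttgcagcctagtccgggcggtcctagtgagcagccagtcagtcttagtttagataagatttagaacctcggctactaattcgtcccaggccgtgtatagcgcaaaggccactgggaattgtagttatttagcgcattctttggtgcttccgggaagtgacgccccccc

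No other eIF3 subunit gene was called. Set against the median of the 11 other subunits per kb of exon, Eif3c was at 2.94, 3.23 and 3.36 times that median in Control and 8.15, 5.87 and 7.14 times in Ogg1Tg. The size of these ratios depends on the length used, which was the same in both groups. Summed exons span 3.511 kb for Eif3c, whose longest protein-coding transcript has 3383 bases. For Eif3e they span 6.719 kb against 1506 bases, and for Eif3i 3.702 kb against 1123 bases. The 11 were Eif3a, Eif3b, Eif3d, Eif3e, Eif3f, Eif3g, Eif3h, Eif3i, Eif3k, Eif3l and Eif3m. Their log2 fold changes ran from -0.06 to 0.16, and their limma adjusted p-values from 0.72 to 0.94. For each of the 11 the libraries of the groups overlapped. In Control, Eif3h at 2251 and Eif3c at 2191 per kb of summed exon had the highest means among the eIF3 genes, whereas in Ogg1Tg Eif3c stood at 5093 and Eif3h at 2489. The Control order also depends on the length used: Eif3a has 8.731 kb of summed exon but a longest protein-coding transcript of 5125 bases. Eif3a, which codes for the largest core subunit, measured 12835, 11369 and 11312 in Control and 12577, 12029 and 9598 in Ogg1Tg. Without Ogg1Tg replicate 3 the 11 ran from 0.06 to 0.32 in log2 fold change, none called (lowest limma adjusted p = 0.21), and 8 of the 11 were separated with Ogg1Tg higher, where 13.1% of all tested genes were. The exons of Eif3d share 2151 bases with an antisense transcript, Gm17638, and no source used here gives the strand setting of the counting.

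**Figure D2:**
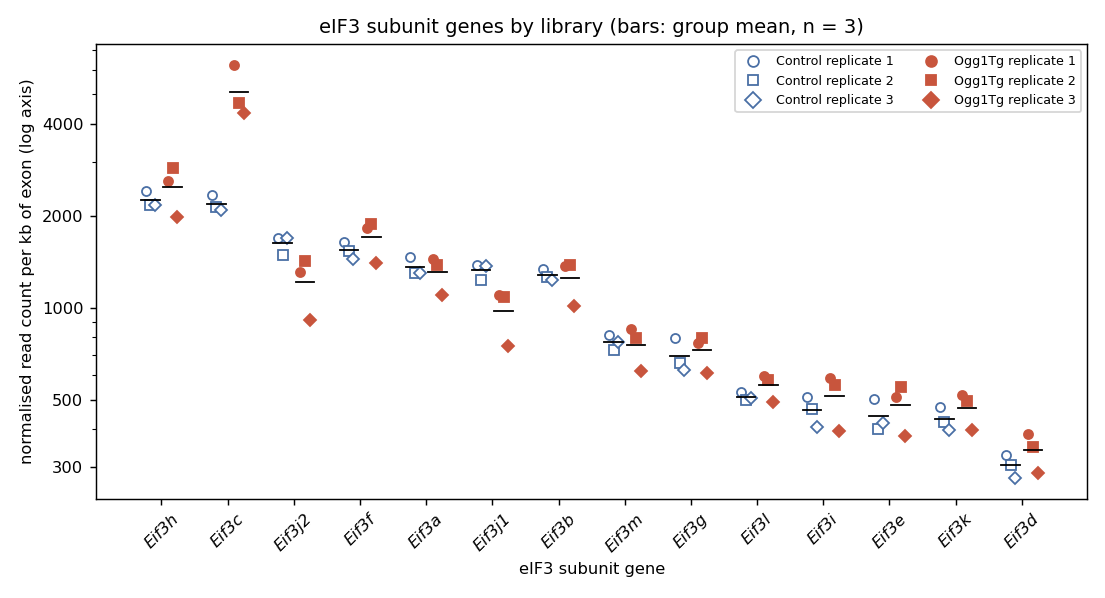
Normalised read counts per kb of exon, on a log axis, of the 14 eIF3 subunit genes, ordered by Control mean; open blue symbols are the 3 Control libraries, filled red symbols the 3 Ogg1Tg libraries and bars the group means. Eif3c is the gene whose groups stand far apart with Ogg1Tg higher, and Eif3j1 and Eif3j2 are those separated with Ogg1Tg lower.

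Genes beside Eif3c were read because no other subunit gene was called, and this was decided after its values were seen. Of 14 tested protein-coding genes whose start lay within 150 kb of the Eif3c start, 0 were called by limma. The unadjusted limma p was under 0.05 for Atxn2l and Nupr1, and for 11% of all tested genes. Atxn2l, which codes for a relative of ataxin 2 found in stress granules, starts at -63.0 kb, on the downstream side, and was the closest to a call. It measured 3496, 3599 and 3672 in Control and 5390, 5407 and 5266 in Ogg1Tg. The spread within each group was small beside the gap (log2 fold change 0.58 ± 0.11 SE, limma adjusted p = 0.073). It was called by edgeR (adjusted p = 0.030) and by limma without Ogg1Tg replicate 3 (adjusted p = 0.0071), and under 5 of 16 other settings in all. Nupr1, a stress-induced nuclear protein gene at 64.5 kb, measured 176, 213 and 305 in Control and 602, 282 and 418 in Ogg1Tg, so that its groups overlapped (limma adjusted p = 0.33). Sh2b1, at -91.0 kb, and Cln3, at 19.4 kb, had log2 fold changes of 0.15 and 0.22 (limma adjusted p = 0.75 and 0.74). Tufm, the mitochondrial elongation factor gene at -79.1 kb, was separated in the other direction without a call (-0.31, limma adjusted p = 0.52, or -0.14 without Ogg1Tg replicate 3).

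**Figure D3:**
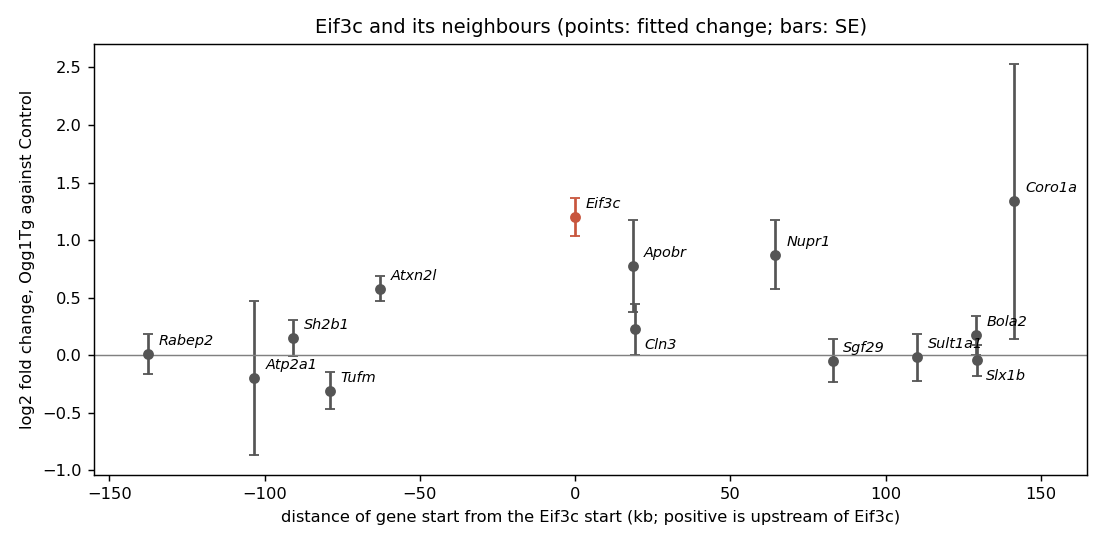
Fitted log2 fold change with its standard error (vertical axis) of Eif3c, in red, and of the 13 neighbouring protein-coding genes with a mean of 10 or more, in grey, by the distance of each gene's start from that of Eif3c in kb. Eif3c at 1.20 and Atxn2l at 0.58 are the high points with short error bars; Coro1a, at 1.34, has the longest bar, with 3063 in Ogg1Tg replicate 3 and 58.9 to 110.9 in the other 5 libraries.

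Eif3j1 and Eif3j2 code for the loosely bound subunit that helps to set eIF3 on the small subunit, and both had lower counts in every Ogg1Tg library. Eif3j1 measured 8022, 7195 and 8000 in Control and 6394, 6325 and 4384 in Ogg1Tg (log2 fold change -0.46 ± 0.17 SE, limma adjusted p = 0.35). Eif3j2 measured 4026, 3543 and 4017 in Control and 3112, 3384 and 2167 in Ogg1Tg (-0.44 ± 0.17 SE, limma adjusted p = 0.39). These are not independent results, since the transcripts are 99.4% identical over 2379 bases and reads cannot be assigned between them with certainty. Their log2 fold changes without Ogg1Tg replicate 3 were -0.28 and -0.25 (limma adjusted p = 0.18 and 0.29). Summed, they measured 12048, 10738 and 12017 in Control and 9506, 9709 and 6550 in Ogg1Tg. Eif3j1 also shares 1107 exon bases with Spg11 on the opposite strand.

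eIF2 and its exchange factor eIF2B are the step that phosphorylation of eIF2 slows under stress. Eif2s2, the beta subunit of eIF2, measured 8787, 7516 and 7125 in Control and 12131, 12315 and 8859 in Ogg1Tg. All Ogg1Tg values were above those of Control (log2 fold change 0.50 ± 0.17 SE, limma adjusted p = 0.32). The limma adjusted p was 0.013 without Ogg1Tg replicate 3 and 0.012 with quantile normalization. The adjusted p was 0.032 with DESeq2 and 0.20 with edgeR. Eif2s2 has 1 near-identical other gene, a pseudogene (99.5% identical over 992 bases). Its partner Eif2s1, the alpha subunit that the stress kinases phosphorylate, measured 1240, 1252 and 1284 in Control and 1441, 1438 and 1191 in Ogg1Tg (0.10, limma adjusted p = 0.79). The gamma subunit gene Eif2s3x, outside the 57, measured 5121, 4591 and 4523 and then 5301, 5347 and 4096 (0.04, limma adjusted p = 0.93). The 5 eIF2B subunit genes had log2 fold changes of -0.15 to 0.12 (limma adjusted p = 0.76 to 0.98), with overlapping groups in each case. Without Ogg1Tg replicate 3 all 5 were above 0, up to 0.34, and none was called. Eif2a and Eif2d, which code for proteins that can bring tRNA to the ribosome without eIF2, were at -0.01 and 0.15.

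The start-site factors are small proteins that ride on the small subunit as it scans. Of their 6 genes 0 were called by limma, edgeR or DESeq2, 0 had an unadjusted limma p under 0.05 and 0 were separated between groups. When Ogg1Tg replicate 3 was left out, all 6 were above 0 and 4 were separated with Ogg1Tg higher, where 13.1% of all tested genes were, and none was called. Eif1, which keeps the scanning complex open, was the most abundant at 22448, 24179 and 22268 in Control and 28625, 28199 and 18265 in Ogg1Tg. Here the Ogg1Tg libraries held the extremes on both sides (log2 fold change 0.10 ± 0.20 SE, limma adjusted p = 0.89, or 0.31 and 0.16 without Ogg1Tg replicate 3). Its relative Eif1b was at 0.02, and Eif1 has 13 near-identical other genes, 12 of them pseudogenes. Eif5, which triggers GTP hydrolysis by eIF2 at the start codon, measured 9051, 7316 and 8780 in Control and 9779, 10222 and 8904 in Ogg1Tg (0.20, limma adjusted p = 0.63). Eif1a and its X-linked copy Eif1ax, which code for the same small factor, were at 0.19 and -0.09, and the value of Eif1ax turned to 0.01 with edgeR and 0.05 with quantile normalization.

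Among the 12 genes of the cap-binding complex eIF4 and its relatives 0 were called by limma, edgeR or DESeq2, and 1, Eif4e3, had an unadjusted limma p under 0.05. Log2 fold changes were above 0 for 4 and below for 8. Their median was -0.13, and it was -0.08 after median-of-ratios rescaling, -0.04 with edgeR, -0.07 with DESeq2 and 0.07 with quantile normalization. Eif4e, the cap-binding protein itself, measured 3583, 3455 and 3527 in Control and 3196, 3323 and 2217 in Ogg1Tg. The 3 Control values were close together and every Ogg1Tg value was below them (log2 fold change -0.30 ± 0.16 SE, limma adjusted p = 0.55). Eif4e has 1 near-identical other gene, a pseudogene. Its relative Eif4e3 measured 1488, 1280 and 1293 in Control and 976, 1224 and 599.5 in Ogg1Tg (-0.59 ± 0.24 SE, limma adjusted p = 0.40), the lowest log2 fold change of the 57, and shares 373 exon bases with Gm20696 on the same strand. Eif4e2, which codes for a cap-binding repressor, was at -0.04, turning to 0.01 to 0.04 under the other scalings. Eif4enif1, which carries eIF4E into the nucleus, measured 2349, 2277 and 2220 and then 1909, 2205 and 1800 (-0.22, limma adjusted p = 0.56). All 4 genes had their lowest value in Ogg1Tg replicate 3, and without it Eif4e was at -0.11 and Eif4e3 at -0.30.

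The scaffold eIF4G links the cap to eIF3. Eif4g2, which codes for a shortened form that lacks the eIF4E site, was the most abundant eIF4 gene in counts, at 48394, 47276 and 46257 in Control and 43135, 47576 and 32508 in Ogg1Tg. Eif4g1 measured 36731, 33642 and 33612 and then 32934, 36610 and 22789, and Eif4g3 measured 20122, 16766 and 16307 and then 14748, 17359 and 11060. Groups overlapped for all of them, and the log2 fold changes were -0.22, -0.20 and -0.32 (limma adjusted p = 0.72, 0.75 and 0.59). These were -0.06, 0.00 and -0.14 without Ogg1Tg replicate 3, and with quantile normalization Eif4g2 and Eif4g1 were at 0.09 and 0.04. The helicase genes had values of opposite sign, and neither was called. Eif4a1 measured 3262, 2715 and 2789 in Control and 3730.02, 3467 and 3292 in Ogg1Tg (0.26 ± 0.12 SE, limma adjusted p = 0.48). It has 3 near-identical other genes, all pseudogenes, and its exons overlap the snoRNAs Gm22988 and Gm24029 on the same strand. Eif4a2, the form more abundant in this muscle at 1647 per kb against 674 in Control, was at -0.06, and at 0.15 with quantile normalization.

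At the close of initiation, eIF5B joins the large subunit and eIF6 keeps free large subunits apart until they are used. Eif5b measured 7974, 6690.4 and 6982 in Control and 6244, 6187 and 4167 in Ogg1Tg (log2 fold change -0.40 ± 0.18 SE, limma adjusted p = 0.45, or -0.21 and 0.39 without Ogg1Tg replicate 3). Its groups did not overlap, and its exons share 1643 bases with Rev1 on the opposite strand. Eif6 was at 0.08 with overlapping groups (limma adjusted p = 0.87).

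Per kb of exon, the elongation genes Eef1a2 and Eef2 had the highest Control means of the 57, and Eif5a2 the lowest. Eef1a1 had the highest log2 fold change of the 57. Eef1a1 measured 10559, 9599.8 and 11124 in Control and 24180, 17824 and 38133 in Ogg1Tg. Each Ogg1Tg library was above each Control library, with replicate 3 the highest of the 6. The log2 fold change was 1.29 ± 0.25 SE, a 2.44-fold difference, and it missed the threshold (limma adjusted p = 0.085; edgeR adjusted p = 0.12). It passed without Ogg1Tg replicate 3 (log2 fold change 1.00, limma adjusted p = 0.0047), without Ogg1Tg replicate 2 (1.54, limma adjusted p = 0.022) and with DESeq2 (adjusted p = 2.0e-05). The library with the highest Eef1a1 is also the one with high lymphocyte and adipocyte markers. Their part in its value was not tested, and Ogg1Tg replicates 1 and 2 were above Control as well. Eef1a1 also has 12 near-identical other genes, 9 of them pseudogenes, so that its reads could be split by the counting.

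Eef1a2, the form of mature muscle and nerve, measured 60056, 59922 and 54822 in Control and 66445, 68016 and 43777 in Ogg1Tg. Ogg1Tg held both the highest and the lowest values (log2 fold change 0.00 ± 0.23 SE, limma adjusted p = 0.999). Per kb of exon, Eef1a1 made up 12.8%, 11.8% and 14.5% of the sum of both genes in Control and 23.3%, 18.0% and 42.1% in Ogg1Tg. Summed exons span 2.493 kb for Eef1a1, whose longest protein-coding transcript has 1794 bases, and 2.084 kb for Eef1a2, with 2084 bases. By transcript length the Eef1a1 share would be higher in every library. The mean share was 13.0% ± 1.36 (SD, n = 3) and 27.8% ± 12.7 (SD, n = 3), a difference of 14.8 percentage points that fell to 7.60 without Ogg1Tg replicate 3. The groups did not overlap, and the two-sided exact permutation test gave p = 0.1, the smallest that 3 against 3 libraries allow.

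The windows of 250 bases upstream of the RefSeq starts of both genes (GRCm38.p6) are shown to compare the genes that make the same factor: chr9:78481725-78481974, minus strand, for Eef1a1 and chr2:181157016-181157265, minus strand, for Eef1a2. The Eef1a1 window had 68% G and C and the Eef1a2 window 54%. Neither holds any of the 3 motifs searched, so no base is in capitals. Some annotated transcripts of Eef1a1 start further upstream, so its window lies within the span of the gene, in no exon.
Eef1a1: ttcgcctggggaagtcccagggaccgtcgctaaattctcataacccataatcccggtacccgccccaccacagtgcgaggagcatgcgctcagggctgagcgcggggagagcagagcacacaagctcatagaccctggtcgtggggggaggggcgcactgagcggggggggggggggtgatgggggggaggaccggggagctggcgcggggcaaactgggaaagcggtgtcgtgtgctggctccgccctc
Eef1a2: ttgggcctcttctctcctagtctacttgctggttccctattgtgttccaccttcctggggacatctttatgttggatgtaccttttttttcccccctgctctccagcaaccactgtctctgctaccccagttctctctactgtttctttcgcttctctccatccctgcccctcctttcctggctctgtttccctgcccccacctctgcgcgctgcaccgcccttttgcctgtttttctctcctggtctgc

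**Figure D4:**
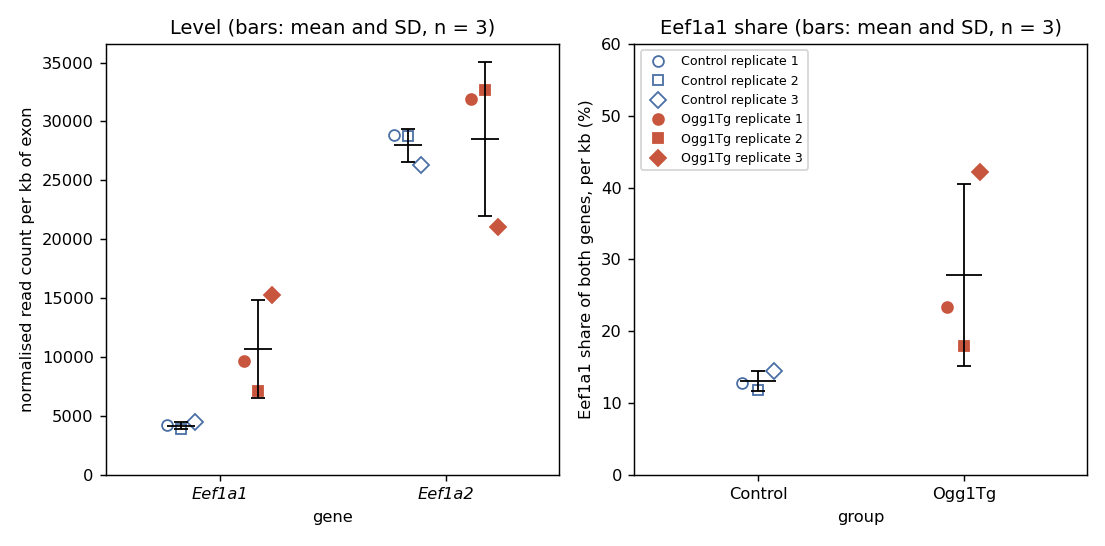
Left, normalised read counts per kb of exon of Eef1a1 and Eef1a2 by library, with group mean and SD; right, the share of Eef1a1 in the sum of both genes, in percent, by library, with mean and SD. Open blue symbols are Control and filled red symbols Ogg1Tg; the Eef1a1 share was 11.8% to 14.5% in Control and 18.0% to 42.1% in Ogg1Tg, while the Eef1a2 groups overlap.

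The eEF1B complex recharges eEF1A with GTP. Eef1b2, its exchange subunit, measured 2700.02, 2648 and 2416 in Control and 3541, 3242 and 3261 in Ogg1Tg, with no overlap (log2 fold change 0.37 ± 0.11 SE, limma adjusted p = 0.28). Eef1b2 has 1 near-identical other gene, a pseudogene (98.9% identical over 278 bases). DESeq2 gave Eef1b2 an adjusted p of 0.019, and edgeR 0.15. The other subunits differed from it in value: Eef1d was at -0.01, between 0.05 and 0.10 under the other scalings, and Eef1g at -0.19, or -0.04 without Ogg1Tg replicate 3 and 0.05 with quantile normalization (limma adjusted p = 0.99 and 0.71). Eef1g has 4 near-identical other genes, all pseudogenes, 1 of them 99.6% identical over 1342 bases, so that its reads could be split by the counting. Eef2, the translocase and the most abundant of the 57 in counts, measured 63611, 57884 and 60219 in Control and 82740.3, 80921 and 61299 in Ogg1Tg. Replicates 1 and 2 of Ogg1Tg were above all Control libraries and replicate 3 lay within their range (0.30 ± 0.22 SE, limma adjusted p = 0.66, or 0.43 and 0.0995 without replicate 3). Eif5a was at 0.05, or 0.23 without replicate 3. Its rarer relative Eif5a2 measured 186, 136 and 120.1 in Control and 81.1, 79.4 and 202 in Ogg1Tg, low in replicates 1 and 2 and highest of all in replicate 3 (limma adjusted p = 0.73, or 0.16 without replicate 3).

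Messages whose 5′ end is a run of pyrimidines (TOP mRNAs) are translated under the control of mTOR. A list of 8 members was read as such genes: Eef1a1, Eef1b2, Eef1d, Eef1g, Eef2, Eif3e, Eif3f and Eif3h. The list was drawn up with earlier results of these data known. The 5′ ends were not checked, and other members of the 57 may belong to it. Of the 8, 0 were called by limma (2 had an unadjusted p under 0.05) or edgeR and 2 by DESeq2. Log2 fold changes were above 0 for 6 and below 0 for 2, with a median of 0.13. Eef1a1 and Eef1b2 were the 2 separated between groups. Among all tested genes 11% had an unadjusted limma p under 0.05, 2.66% were called by DESeq2 and 18.3% were separated. The median over the 8 genes was 0.23 and 0.33 in Ogg1Tg replicates 1 and 2 and -0.16 in replicate 3. Without that library the median log2 fold change was 0.28, 7 of the 8 were separated with Ogg1Tg higher, where 13.1% of all tested genes were, and 1, Eef1a1, was called.

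The 6 modifiers and relatives act on elongation factors or share their complexes. Eef1e1, a scaffold of the tRNA synthetase complex, measured 282, 219.6 and 208 in Control and 313, 340 and 296 in Ogg1Tg, with no overlap (log2 fold change 0.43 ± 0.18 SE, limma adjusted p = 0.43). Eef2k, the kinase that slows elongation by phosphorylating eEF2, measured 6113, 4622 and 4927 in Control and 4479.8, 5890 and 2667 in Ogg1Tg, with overlap (-0.33, limma adjusted p = 0.68). It was at -0.01 without Ogg1Tg replicate 3. The methyltransferase genes Eef1akmt1, Eef1akmt2, Eef1akmt3 and Eef2kmt, whose products methylate eEF1A or eEF2, were at -0.30, 0.03, -0.14 and 0.12, none called, and Eef1akmt1 was at -0.02 without Ogg1Tg replicate 3. Short stretches of Eef1akmt3 are near-identical to transcripts of 168 other genes, and Eef2kmt shares 472 exon bases with Alg1 on the opposite strand. Reads of these 2 genes may thus not be theirs alone.

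The other genes of the pathway held 2 called genes among 42 tested regulators of translation, both higher in Ogg1Tg and both acting on eIF4E. Among all tested genes 0.545% were called and 0.395% were called higher. The list was drawn up with earlier results of these data known, so these shares do not test it. The median log2 fold change of the 42 was -0.03, with 19 above 0 and 23 below. Eif4ebp1, which codes for the mTOR target that holds eIF4E away from eIF4G, measured 1299, 946 and 1078 in Control and 4231, 3504 and 2657 in Ogg1Tg. The lowest Ogg1Tg value was above the highest Control value, with means of 1108 ± 179 and 3464 ± 788 (SD, n = 3 each), a 3.10-fold difference (log2 fold change 1.63 ± 0.19 SE, limma adjusted p = 0.0075). The call held under 13 of 16 other settings, and was lost with no variance trend (limma adjusted p = 0.13) and without Control replicate 2 or 3 (adjusted p = 0.085 and 0.082). The related genes Eif4ebp2 and Eif4ebp3 were at -0.21 and -0.27, with overlapping groups (limma adjusted p = 0.74 and 0.88), and Eif4ebp2 was at 0.02 without Ogg1Tg replicate 3.

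Mknk1 codes for a kinase that binds eIF4G and phosphorylates eIF4E. It measured 1194, 1183 and 1102 in Control and 2276, 1875 and 1945 in Ogg1Tg, again with no overlap (log2 fold change 0.80 ± 0.12 SE, 1.75-fold, limma adjusted p = 0.030). It was called under 10 of 16 other settings. The 6 fits that lost the call were those with no variance trend (limma adjusted p = 0.23), with the replicate number as a block (adjusted p = 0.077), and without Control replicate 1, 2 or 3 or Ogg1Tg replicate 1 (adjusted p = 0.16, 0.23, 0.20 and 0.12), while the log2 fold change in those fits stayed between 0.72 and 0.83. Mknk2, the second such kinase gene and the more abundant in counts, was at 0.06 (14874, 14309.5 and 14494 against 19619, 15748 and 11233), or 0.27 without Ogg1Tg replicate 3. Pabpc1, the poly(A)-binding protein that joins the tail to eIF4G, measured 7161, 6489 and 7087 in Control and 8892, 10514 and 12382 in Ogg1Tg, without overlap or call (0.60 ± 0.15 SE, limma adjusted p = 0.18). It was called with DESeq2 (adjusted p = 0.0039) and without Ogg1Tg replicate 3 (limma adjusted p = 0.045), and was described after its values were seen. The eIF2 kinase genes Eif2ak1, Eif2ak2, Eif2ak3 and Eif2ak4 ran from -0.33 to 0.21, and the phosphatase subunits Ppp1r15a and Ppp1r15b, which reverse them, were at 0.13 and 0.20, none called.

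**Figure D5:**
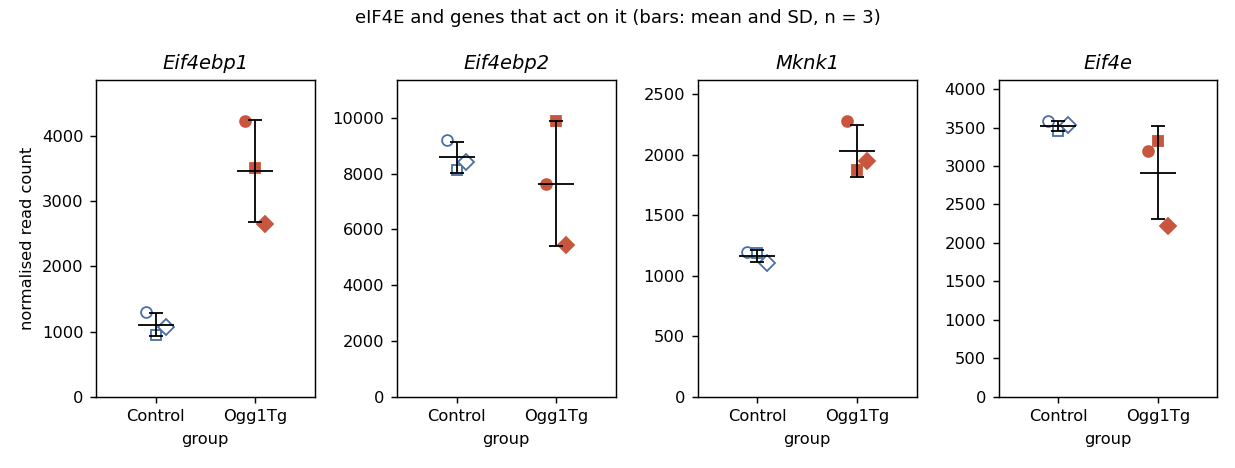
Normalised read counts by library of Eif4ebp1, Eif4ebp2, Mknk1 and Eif4e, each panel from 0 on its own scale, with group mean and SD (n = 3); open blue symbols are Control and filled red symbols Ogg1Tg, with circles, squares and diamonds for replicates 1, 2 and 3. Eif4ebp1 and Mknk1 are separated with Ogg1Tg higher, Eif4ebp2 overlaps, and Eif4e is separated with Ogg1Tg lower without passing the test.

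The mitochondrial ribosome has its own factors, and of the 11 tested 0 were called by limma, edgeR or DESeq2. An unadjusted limma p under 0.05 was found for 2, where 11% of all tested genes had one. All 11 log2 fold changes were below 0, with a median of -0.20, where 12313 of 23312 tested genes were below 0, with a median of -0.02. With edgeR, DESeq2 and median-of-ratios rescaling 10 of the 11 were below 0, where 10095, 10706 and 10933 of all tested genes were. For 5 of them (Mtif2, Tufm, Tsfm, Gfm2 and Guf1) the groups did not overlap, where 11.3% of all tested genes were separated with Ogg1Tg lower. Tufm, the mitochondrial counterpart of eEF1A, measured 2627, 2595 and 2580.4 in Control and 2565, 2163 and 1666 in Ogg1Tg. Tsfm, which recharges it, measured 331, 460.2 and 393 in Control and 315, 291 and 204 in Ogg1Tg (log2 fold change -0.56 ± 0.21 SE, limma adjusted p = 0.38, or -0.37 without Ogg1Tg replicate 3). Per library, the medians of the 11 were -0.03, 0.06 and -0.01 in Control and -0.02, -0.16 and -0.37 in Ogg1Tg, so that Ogg1Tg replicate 1 lay within the Control range. Without Ogg1Tg replicate 3 the median was -0.12 and 10 of the 11 were below 0. In those libraries 5 were separated with Ogg1Tg lower, where 17.1% of all tested genes were.

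Upstream windows of 250 bases before the RefSeq start were on hand for 44 of the 57 genes. The E-box CACGTG, which reads the same on both strands, was found in 11 of them, or 25%, against 8.80% of 13893 tested genes with a window. For each motif a gene counted if any of its windows held it. The tested genes include many rarer than any member, and genes of like abundance were not compared. The 11 members with CACGTG had log2 fold changes of -0.40 to 0.30 with a median of 0.02. TGATGNAA, searched on both strands, was in 1 of 44 windows, or 2.27%, against 2.63%, and TATAAA, on both strands, in 4, or 9.09%, against 9.49%. The window of Eef2 (GRCm38.p6, chr10:81176381-81176630, plus strand) is shown because it belongs to the member with the highest mean count, though not the highest per kb, and holds both CACGTG and TATAAA, which are in capitals.
Eef2: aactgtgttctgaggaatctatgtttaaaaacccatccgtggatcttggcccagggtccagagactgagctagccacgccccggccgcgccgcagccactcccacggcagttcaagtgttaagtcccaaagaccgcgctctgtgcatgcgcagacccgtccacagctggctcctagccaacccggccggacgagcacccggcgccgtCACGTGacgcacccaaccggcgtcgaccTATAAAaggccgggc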

How the data were processed

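Gene tables of 6 libraries were used. Per the labels' protocols, libraries were prepared with NuGen Ovation Universal reagents. The submitters' processing notes list the mm10 build and the tools Trimmomatic, SAMtools and HTSeq. Versions are not given in the sources used, nor are the aligner, the gene models or whether counting used strand. The deposited signal, named FPKM by the file names, is a gene's count divided by 1 factor per library: whole reads were recovered within 0.01 for 100% of values, less distinctively in Ogg1Tg replicate 3, whose step of 1.01 is close to 1. Unnamed entries (1824, with 2.38% to 3.54% of reads) were left out.

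The scale for testing was log2(value + 1), on which low genes show too small a fold, and the tool was limma 3.58.1 in R 4.3.3: Ogg1Tg minus Control, genes with a mean of at least 1, variance trend, two-sided, Benjamini-Hochberg over all tested genes, called at an adjusted p under 0.05. Other settings were quantile normalization, rescaling by median-of-ratios factors, no or a robust variance trend, a replicate block, each library left out, no filter or a minimum mean of 5, a pseudocount of 0.1, and recovered reads tested in edgeR 4.0.16 and DESeq2 1.42.0. A fit in edgeR that left out Ogg1Tg replicate 3 was chosen after seeing the data. The tests were tried on simulated data.

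The members, gene lists and tests were chosen with earlier results of these data known. The naming rule took called members, members whose groups do not overlap, the most abundant member of each role, gene copies, the genes at the edge of the level, called regulators, and Eif4ebp1, Eif2s3x and Tufm. Atxn2l and other neighbours of Eif3c, Pabpc1, Nupr1 and further genes given only by a value were added after values were seen. Of 35474 symbols 35320 matched GENCODE M21 (GRCm38), which gave coordinates and exon lengths. Per-kb values use the summed length of all annotated exons, which for some genes is well above that of their longest protein-coding transcript. Upstream sequences are from RefSeq (GRCm38.p6).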

Additional observations from a re-analysis of the deposited data

How the results depend on the processing

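Genes called numbered 127, and 46 with no variance trend, 619 with DESeq2 and 35 to 425 when 1 library was left out: dropping a Control library left 43 (replicate 1), 42 (replicate 2) or 35 (replicate 3), and dropping an Ogg1Tg library left 62 (replicate 1), 194 (replicate 2) or 425 (replicate 3) (402 with edgeR without Ogg1Tg replicate 3, which stood apart). Translation factors called numbered 1, and 2 with quantile normalization, 0 with no variance trend, 4 with DESeq2 and 0 to 3 when limma left out 1 library (0 without any 1 Control library or Ogg1Tg replicate 1, 2 without Ogg1Tg replicate 2 and 3 without replicate 3), with 4 for edgeR without Ogg1Tg replicate 3. Regulators called numbered 2, and 0 with no variance trend and 0 to 3 when 1 library was left out. Mitochondrial factors called numbered 0 in each. The members' median of 0.03 ran from -0.05 to 0.18 when limma left out 1 library and was 0.23 with edgeR without Ogg1Tg replicate 3. The difference in Eef1a1 share ran from 7.60 to 19.7 percentage points. Replicate numbers did not pair the libraries (same-number correlations -0.05, -0.01 and 0.03); with a replicate block 102 genes, 1 translation factor (Eif3c, limma adjusted p = 0.033) and 1 regulator were called, Mknk1 being lost (limma adjusted p = 0.077).

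Of 39 named genes, 19 changed sign in some fit, none of them called in the main comparison. Quantile normalization gave -0.035 for Eef1akmt2, 0.097 for Eef1d, 0.051 for Eef1g, 0.049 for Eif1ax, 0.010 for Eif2b4, 0.15 for Eif4a2, 0.039 for Eif4e2, 0.044 for Eif4g1 and 0.089 for Eif4g2. Median-of-ratios rescaling gave 0.048 for Eef1d, 0.038 for Eif2b4 and 0.010 for Eif4e2. edgeR gave 0.074 for Eef1d, 0.0056 for Eif1ax, 0.084 for Eif2b4, 0.016 for Eif4a2 and 0.038 for Eif4e2. DESeq2 gave 0.051 for Eef1d, 0.063 for Eif2b4 and 0.015 for Eif4e2. edgeR without Ogg1Tg replicate 3 gave 0.15 for Eef1d, 0.0053 for Eef1g, 0.034 for Eef2k, 0.14 for Eif1ax, 0.25 for Eif2b4, 0.062 for Eif2b5, 0.050 for Eif4a2, 0.11 for Eif4e2 and 0.049 for Eif4g1. With limma, leaving out 1 library gave log2 fold changes that cross 0: Eef1a2 -0.11 to 0.21, Eef1akmt2 -0.058 to 0.090, Eef1d -0.074 to 0.11, Eif1 -0.016 to 0.31, Eif1ax -0.23 to 0.090, Eif1b -0.071 to 0.19, Eif2b1 -0.11 to 0.27, Eif2b2 -0.047 to 0.34, Eif2b3 -0.065 to 0.18, Eif2b4 -0.19 to 0.20, Eif2b5 -0.24 to 0.020, Eif4a2 -0.10 to 0.0056, Eif4e2 -0.11 to 0.068, Eif4g1 -0.34 to 0.0038, Eif5a -0.050 to 0.23 and Eif2s3x -0.024 to 0.17. The cause was not tested. With 3 libraries a group, differences several times their standard error also missed the threshold, Eef1a1 among them, so a miss does not show that a gene was alike in both groups.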
